A study of Danio rerio with 8 samples.

Results

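Growth differentiation factor 15 (gdf15) and 9 effectors of the integrated stress response were followed in zebrafish larvae that lack a working pex2 gene. The 10 genes were taken by symbol (gdf15, atf4a, atf4b, atf3, ddit3, phgdh, asns, chac1, sesn2 and trib3), and a gene was measured where a probe carried its RefSeq accession. A probe was found for 9 of the 10, with 1 probe of 2 spots each, among 17263 named genes tested. No probe carried an accession of atf3, so that gene was not analysed here. The 10 genes were chosen by a model that had seen their log2 differences between genotypes on these same 8 arrays. Values of mutants against siblings for these 9 genes are therefore a description and carry no test.

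The integrated stress response is a relay in which kinases that sense stress phosphorylate the translation factor eIF2. General protein synthesis then slows while the mRNA of the transcription factor ATF4 is translated more, and ATF4 switches on genes for amino acid supply, for feedback and, through CHOP, for cell death. GDF15, a secreted member of the transforming growth factor beta superfamily, is among the genes this relay induces in mammals, where it curbs feeding through the brain receptor GFRAL. ATF4 is governed largely at translation, so the level of its mRNA is not a readout of its protein.

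RNA came from whole bodies at 5 weeks after fertilization, when the fish are called larvae in the labels. The 4 pex2-/- pools (homozygous for the pex2 typeC allele) and the 4 pex2+/+ pools (their wild-type siblings) each held equal amounts of RNA from 3 larvae, and each pool was labelled with Cy3 and hybridised to a one-colour Agilent array. Only 1 allele was used, and pools hide differences between the fish in them. No source used here says whether pools came from separate clutches. The SD, SE and p-values below may therefore leave out differences between clutches. The spread between pools may also be partly technical.

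Probes well above background made up 67.3% to 75.6% on the mutant arrays, with the lowest share on mutant replicate 4, and 74.5% to 76.3% on the sibling arrays. The 75th percentile of intensity was 454 to 499 on the mutant arrays and 611 to 840 on the sibling arrays, and every level below is a log2 intensity relative to the 75th percentile of its own array. A level of 0 thus equals that percentile. No probe carried the accession of pex2, so its transcript did not check the labels. All 9 genes passed the scanner's background criterion on each of the 8 arrays. A gene's 2 spots differed by at most 0.22 on the log2 scale on any array, a value met for gdf15 and sesn2. Levels of different genes cannot be set against each other on an array, because probes differ in brightness.

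Of the 9 genes, 6 had a higher mean in the mutant pools and 3 a lower one. The 75th percentiles of the 2 genotypes did not overlap, so the sign of a small difference depends on the scaling. Before scaling, for example, chac1 read 5561 to 6906 in mutant pools and 7207 to 9848 in sibling pools. The mutant pools of gdf15, ddit3 and phgdh all lay above the sibling pools, and those of sesn2 all lay below them. Over all named genes, 54.4% had genotypes that did not overlap, 28.4% with the 4 mutant pools above and 26.0% with them below. A difference of at least 1 log2 unit upward, seen for gdf15, ddit3 and phgdh, was found for 7.33% of all named genes. The value of phgdh, 1.00, stood at that cut and was 0.97 with normexp background correction. As the genes were chosen with these values known, the share is no test of them. The 2 genotypes overlapped for atf4a, atf4b, asns, chac1 and trib3. The genes gathered under the name of the stress response thus differed in direction and size between the genotypes.

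**Figure D1:**
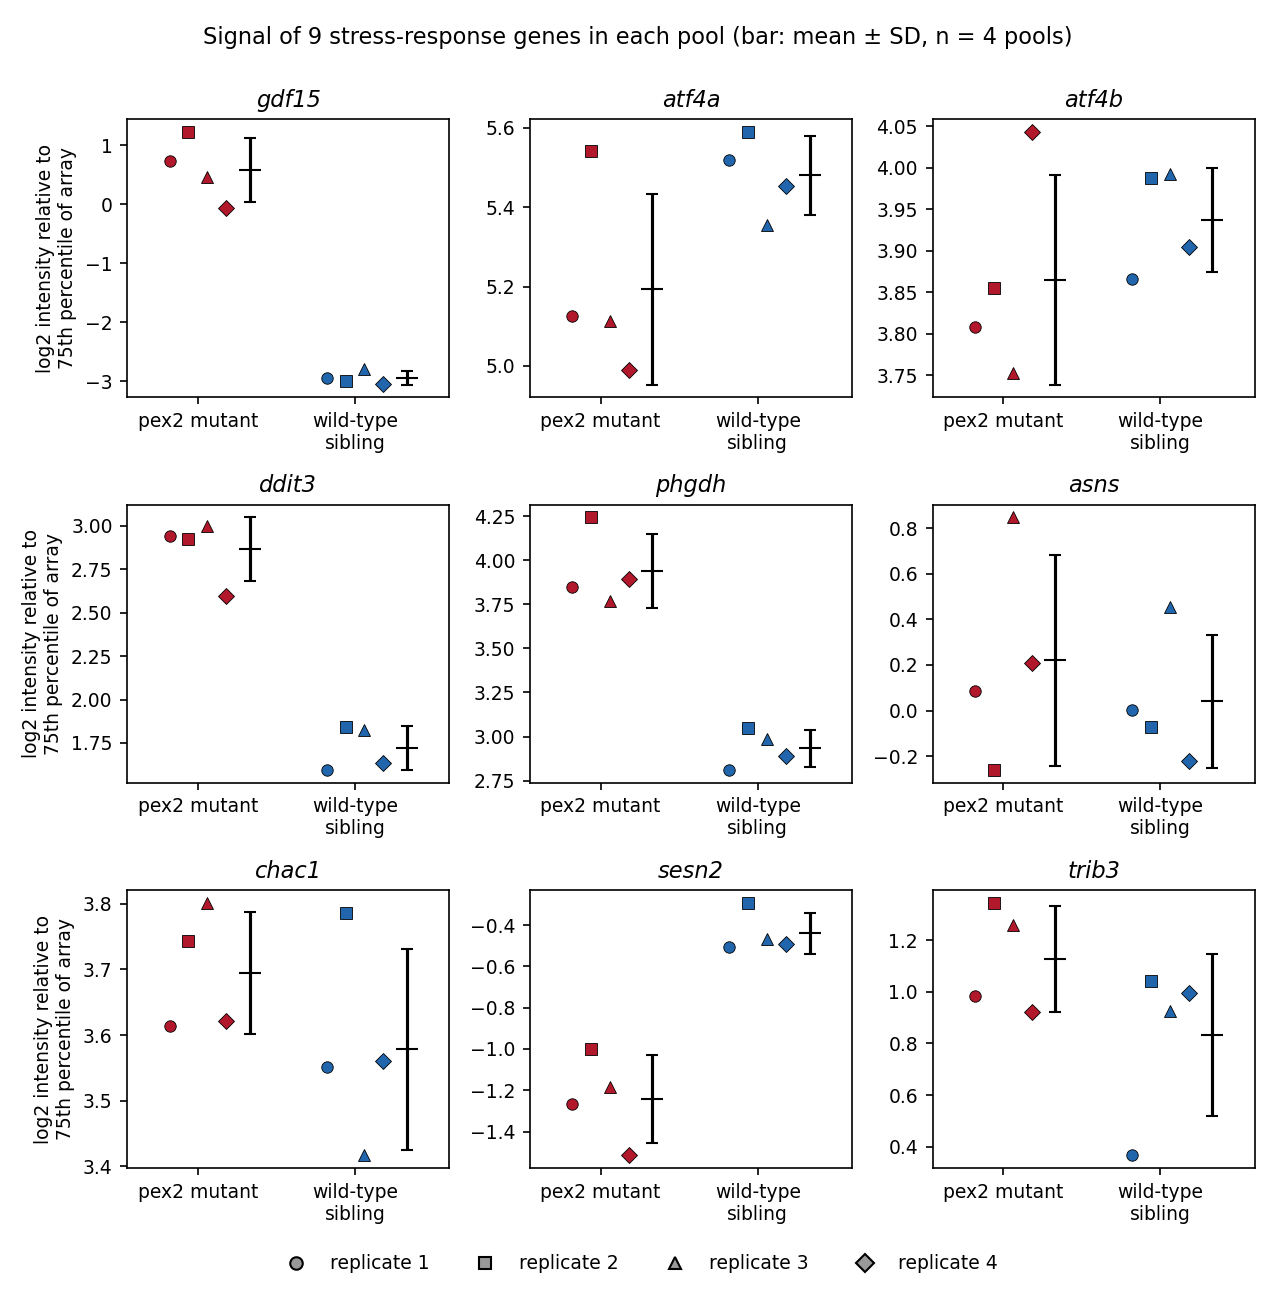
Log2 intensity relative to the 75th percentile of the array (vertical axis, own scale per gene) of 9 genes in the 4 pex2 mutant pools (red, left) and the 4 wild-type sibling pools (blue, right), with a marker shape per replicate number and the mean ± SD beside the points. The mutant pools lie apart and above for gdf15, ddit3 and phgdh, apart and below for sesn2, and the genotypes overlap for the other 5.

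The secreted ligand gdf15 had levels of 0.73, 1.22, 0.46 and -0.07 in mutant replicates 1 to 4, against -2.94, -2.99, -2.79 and -3.05 in sibling replicates 1 to 4. Every mutant pool stood far above every sibling pool, and the gap between the lowest mutant and the highest sibling pool was 2.71. In linear terms the probe read between 95.1% and 233% of the array's 75th percentile in mutant pools and between 12.1% and 14.5% in sibling pools. The mean was 0.58 ± 0.54 in mutants and -2.94 ± 0.11 in siblings (SD, n = 4 pools each), a log2 difference of 3.53 or 11.5-fold. Of the 17263 named genes, 9 had a larger positive difference. They include ggact.1, ggact.2 and cherp, whose probes were not well above background in any sibling pool, so the rank depends partly on background signals. With normexp background correction the difference of gdf15 was 2.86, or 7.25-fold. It was 2.03 for ggact.1, 1.79 for ggact.2 and 1.38 for cherp. The siblings were tightly grouped, while the mutants ranged over 1.30, with replicate 2 highest and replicate 4 lowest. Leaving out 1 pool at a time gave differences between 3.31 and 3.74. In whole bodies, more cells that make a transcript and more transcript per cell cannot be told apart, here or below.

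Zebrafish have a pair of genes for ATF4, the central transcription factor of the response. Levels of atf4a were 5.13, 5.54, 5.11 and 4.99 in mutant replicates 1 to 4, against 5.52, 5.59, 5.36 and 5.45 in sibling replicates 1 to 4. Mutant replicates 1, 3 and 4 lay below all siblings and mutant replicate 2 lay among them, so the genotypes overlapped. The difference was -0.29 (mean 5.19 ± 0.24 in mutants and 5.48 ± 0.10 in siblings, SD, n = 4 each). For atf4b the levels were 3.81, 3.86, 3.75 and 4.04 in mutant replicates 1 to 4, against 3.87, 3.99, 3.99 and 3.90 in sibling replicates 1 to 4. The difference was -0.07, within the SD of 0.13 among mutant pools, and mutant replicate 4 was the highest of all 8 pools. Quantile scaling turned both differences round, to 0.11 for atf4a and 0.16 for atf4b, so neither has a settled direction.

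The transcription factor CHOP, encoded by ddit3, acts with ATF4 and promotes cell death when stress lasts. Its levels were 2.94, 2.93, 3.00 and 2.59 in mutant replicates 1 to 4, against 1.59, 1.84, 1.82 and 1.64 in sibling replicates 1 to 4. The genotypes did not overlap, mutant replicate 4 being the lowest mutant pool and still 0.76 above the highest sibling pool. The means were 2.87 ± 0.18 in mutants and 1.72 ± 0.13 in siblings (SD, n = 4 each), a log2 difference of 1.14 or 2.21-fold. Of all named genes, 793 had a larger positive difference. The value lay between 1.07 and 1.23 under all 19 other settings of the processing.

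Among the enzymes, phgdh makes the first committed step from glycolysis to serine. It had levels of 3.85, 4.24, 3.77 and 3.89 in mutant replicates 1 to 4, against 2.81, 3.05, 2.99 and 2.89 in sibling replicates 1 to 4. All mutant pools were higher than all sibling pools. The means were 3.94 ± 0.21 in mutants and 2.93 ± 0.11 in siblings (SD, n = 4 each), a difference of 1.00 or 2.01-fold. It ranged between 0.90 and 1.17 over the other settings, and 1242 named genes had a larger positive difference.

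Asparagine synthetase, asns, which amidates aspartate and is a classic target of ATF4 under amino acid shortage in mammalian cells, had levels of 0.08, -0.26, 0.85 and 0.21 in mutant replicates 1 to 4. Its levels were 0.00, -0.07, 0.45 and -0.22 in sibling replicates 1 to 4. The genotypes overlapped widely, and replicate 3 was highest in both. The difference of 0.18 was smaller than the SD of 0.46 among mutant pools and of 0.29 among sibling pools, and it was -0.03 without mutant replicate 3. Within the 2 rows of the slide, each of which holds 2 pools of each genotype, it was 0.61 in row 1 and -0.25 in row 2. The glutathione-degrading enzyme chac1, a target of ATF4 and CHOP, had levels of 3.61, 3.74, 3.80 and 3.62 in mutant replicates 1 to 4, against 3.55, 3.79, 3.42 and 3.56 in sibling replicates 1 to 4. The genotypes overlapped, with a difference of 0.12 against an SD of 0.15 among sibling pools. Quantile scaling gave 0.32.

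Of the signalling regulators, sesn2 separated the genotypes and trib3 did not. Sestrin 2, sesn2, holds back mTORC1 when leucine is short and is induced by ATF4 in mammalian cells. It had levels of -1.26, -1.00, -1.19 and -1.52 in mutant replicates 1 to 4, against -0.51, -0.29, -0.47 and -0.49 in sibling replicates 1 to 4. All mutant pools were lower than all sibling pools, by 0.49 at the closest. The difference was -0.80, or 1.74-fold lower in mutants (mean -1.24 ± 0.21 in mutants and -0.44 ± 0.10 in siblings, SD, n = 4 each), and it lay between -0.88 and -0.63 over the other settings. The pseudokinase trib3, a feedback inhibitor of ATF4 and of Akt, had levels of 0.98, 1.35, 1.26 and 0.92 in mutant replicates 1 to 4, against 0.37, 1.04, 0.93 and 1.00 in sibling replicates 1 to 4. The genotypes overlapped, and sibling replicate 1 lay well under the other 7 pools. The difference of 0.30 became 0.14 without that pool.

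**Figure D2:**
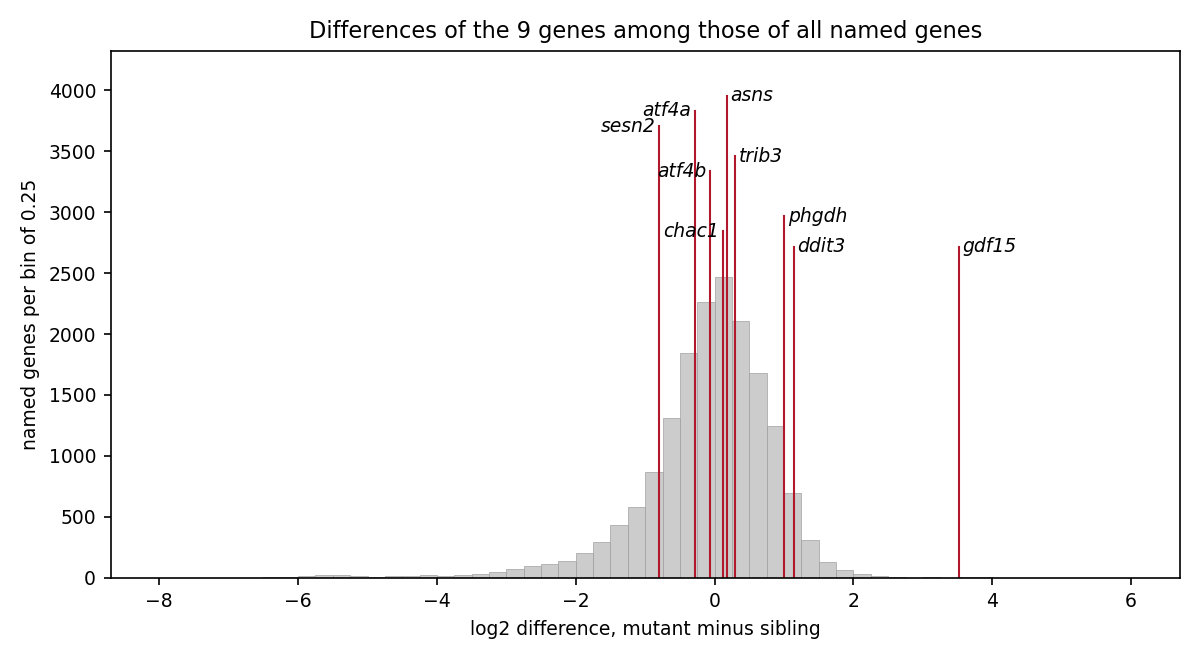
Number of named genes (vertical axis) per bin of the log2 difference, mutant minus sibling (horizontal axis), for 17263 genes in grey, with the 9 genes as red lines whose heights only make room for the names. The line of gdf15 at 3.53 stands in the right tail, ddit3 and phgdh stand at 1.14 and 1.00, sesn2 at -0.80, and the other 5 within the central mass.

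**Figure D3:**
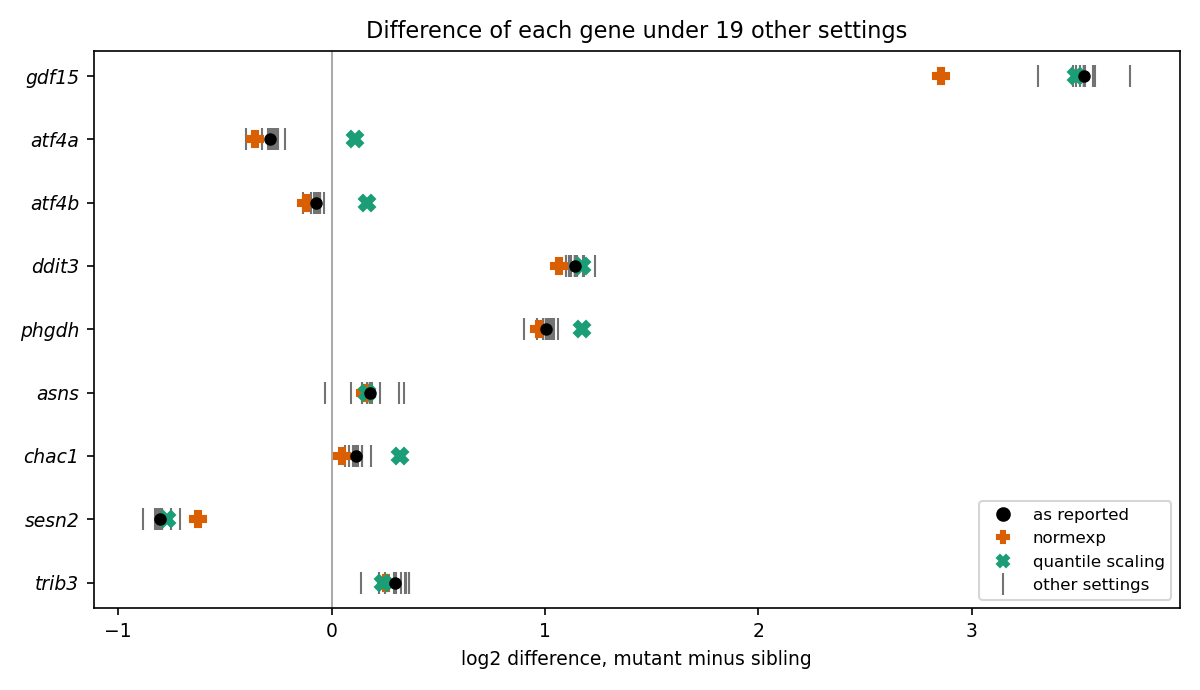
Log2 difference, mutant minus sibling (horizontal axis), of each of the 9 genes as reported (black) and under 19 other settings, with normexp background correction (orange) and quantile scaling (green) marked apart. The gdf15 value is 2.86 with normexp, atf4a and atf4b cross 0 with quantile scaling, and ddit3, phgdh and sesn2 keep their sign throughout.

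The 9 genes did not share an order of the mutant pools. Mutant replicate 2 was the highest mutant pool for 5 genes (gdf15, atf4a, phgdh, sesn2 and trib3), replicate 3 for 3 (ddit3, asns and chac1) and replicate 4 for atf4b alone. Mutant replicate 4 was the lowest mutant pool for 5 of the 9, and over all genes 31.4% were lowest in that pool and 29.0% highest in replicate 2. The median of the 9 deviations from the mutant mean was 0.22 in replicate 2 and -0.20 in replicate 4. The spread among mutant pools was wider than among sibling pools for 7 of the 9 genes, against 70.1% of all genes. The exceptions were chac1 and trib3. Within slide rows the difference of gdf15 was 3.61 in row 1 and 3.44 in row 2, and ddit3, phgdh and sesn2 also kept their direction in both.

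The next question was what the rest of the relay did. Values are log2 differences, mutant minus sibling, ± SE (n = 4 pools per genotype), with the limma adjusted p over all probes. These gene lists were also chosen with earlier results of these data known. In most lists the named genes are mainly those of lowest adjusted p on these same arrays. Calls and counts of the lists therefore describe these arrays and are no independent support. Of all named genes, 57.4% had an adjusted p under 0.05. They comprised 29.8% that were higher and 27.6% that were lower, and the median difference was 0.01. Every count below is to be read beside these shares. Some counted genes met the filter for dim probes only through the genotype in which they are brighter. Among those counted as lower, ndr1, lamtor5 and ggt1a were well above background on 1 of 4 mutant arrays. It was 2 for cebpa and pmaip1, and 3 for dpep1, gdf9 and cremb. These genes are named here for that reason, and their calls are no evidence of a difference. The lists share genes, so counts of different lists are not independent of each other. Among others, slc6a9, pycr1a, mthfd2, ero1a and mars1 are counted both as targets of ATF4 or CHOP and in another list.

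At the top of the relay, 12 of 15 listed eIF2 kinases, phosphatase subunits and relay proteins were measured, of which 0 passed as higher and 3 as lower, with a median of -0.12. In this limma fit 3 were higher at an unadjusted p under 0.05. The count of higher genes was 1 with a trended robust fit or without mutant replicate 2, and 2 with normexp or without mutant replicate 1. The haem-regulated kinase eif2ak1 fell (-0.59 ± 0.10, adjusted p = 0.00165), with levels of 0.26 to 0.49 in mutant pools and 0.78 to 1.11 in sibling pools, which did not overlap. The adaptor genes nck1a (-0.48 ± 0.10, adjusted p = 0.00343) and nck1b (-0.41 ± 0.12, adjusted p = 0.0168) fell too; in mammals NCK1 opposes eIF2 phosphorylation. The endoplasmic reticulum kinase eif2ak3, known as PERK, had a difference of 0.25 ± 0.11 (adjusted p = 0.0769). That of the double-stranded RNA kinase eif2ak2 was 0.39 ± 0.17 (adjusted p = 0.0749). The stress-induced phosphatase subunit ppp1r15a, which removes the phosphate from eIF2 and is itself a target of the relay, had 0.41 ± 0.17 (adjusted p = 0.0628). The other 6 measured genes (impact, dele1, dnajc3a, dnajc3b, ppp1r15b and pkz) had differences between -0.20 and 0.18, with adjusted p between 0.0786 and 0.982. The amino acid sensor eif2ak4 and its activator gcn1 had no probe matched by accession. Of 10 eIF2 and eIF2B genes, 1 was higher (eif2b4, 0.29 ± 0.09, adjusted p = 0.0197) and 2 were lower, eif2b2 (-0.40 ± 0.08) and the unrelated initiation factor eif2a (-0.41 ± 0.09). The eIF2 alpha subunit gene eif2s1b had -0.20 ± 0.09 (adjusted p = 0.0736). The call of eif2b4 was lost without sibling replicate 3 (adjusted p = 0.0523) and with the replicate number as a block (adjusted p = 0.0501).

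Other genes known as targets of ATF4 or CHOP moved in both directions. Of 46 measured, 11 rose, 6 fell and 29 did not pass, with a median of 0.19. Thus 23.9% were higher and 13.0% lower. The cell death gene bbc3, which encodes PUMA, rose most clearly (1.34 ± 0.12, adjusted p = 1.13e-04), with levels of -2.11 to -1.86 in mutant pools and -3.46 to -3.00 in sibling pools. The glycine transporter slc6a9 (0.91 ± 0.10, adjusted p = 2.04e-04), the stress-induced gene ndrg1b (1.22 ± 0.15, adjusted p = 3.23e-04) and the proline-forming enzyme pycr1a (0.89 ± 0.13, adjusted p = 7.94e-04) rose as well. None of these 4 genes had overlapping genotypes. The value of pycr1a was 0.36 when all its probes were averaged. The oxidoreductase ero1a fell (-0.74 ± 0.11, adjusted p = 8.38e-04), and its difference was -0.33 with normexp and -1.12 with outlier spots kept. The probes of the hormone fgf21 and of the cystine carrier slc7a11 were not well above background on any array, so they gave no difference.

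Around phgdh, 25 genes of serine, glycine and one-carbon metabolism had 4 higher and 6 lower, with a median of 0.05. The count of higher genes was 2 without mutant replicate 1 or 3 or without sibling replicate 1 or 2. The mitochondrial folate carrier slc25a32a (1.00 ± 0.20, adjusted p = 0.00324) and glycine N-methyltransferase gnmt (0.54 ± 0.14, adjusted p = 0.00974) rose. The folate enzymes mthfd1a (-0.45 ± 0.09, adjusted p = 0.00250) and mthfd2 (-0.62 ± 0.15, adjusted p = 0.00737) fell, and mthfd1a fell by -0.22 with normexp. The enzymes that follow phgdh on the way to serine, singled out after their values were seen, did not pass. They were psat1 (0.29 ± 0.15, adjusted p = 0.140) and psph (0.03 ± 0.19, adjusted p = 0.913).

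Around asns, 19 genes of asparagine, glutamine, glutamate and proline metabolism had 8 higher and 3 lower, with a median of 0.22. The glutaminase gls2b rose 3.30-fold (1.72 ± 0.16, adjusted p = 1.24e-04). Smaller rises were those of aspdh (1.05 ± 0.12, adjusted p = 2.25e-04) and the proline-degrading enzyme prodha (1.00 ± 0.14, adjusted p = 6.61e-04). The enzyme aldh18a1, which starts proline synthesis, fell (-0.80 ± 0.16, adjusted p = 0.00319). Of 27 amino acid transporters, 12 rose and 4 fell, with a median of 0.43, and the count of lower ones was 2 without mutant replicate 1 or without sibling replicate 1. The lysosomal and plasma membrane carrier slc36a1 (1.00 ± 0.08, adjusted p = 8.83e-05) and the large neutral amino acid carrier slc7a8b (1.63 ± 0.19, adjusted p = 3.00e-04) rose. The carrier slc43a2b, of another family, fell (-1.32 ± 0.16, adjusted p = 3.01e-04). With normexp slc7a8b stood at 0.90.

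Of 40 genes of the unfolded protein response of the endoplasmic reticulum, which shares the kinase eif2ak3 with the integrated stress response, 33 did not pass. The other 7 were 4 higher and 3 lower, and the median was 0.02. The glycan-trimming gene edem3 (0.75 ± 0.14, adjusted p = 0.00257) and the retrotranslocation gene derl1 (0.56 ± 0.09, adjusted p = 0.00123) rose, while the disulfide reductase dnajc10 fell (-1.00 ± 0.13, adjusted p = 4.25e-04). The count of lower genes was 5 without mutant replicate 4 and with normexp.

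The relatives of the 10 genes gave 8 measured genes, of which 2 rose, 1 fell and 5 did not pass. The sestrin sesn1 rose 2.48-fold (1.31 ± 0.17, adjusted p = 4.25e-04), whereas its relative sesn2 was lower in mutants. Its levels were 3.53, 4.06, 4.14 and 3.74 in mutant replicates 1 to 4, against 2.41, 2.50, 2.41 and 2.89 in sibling replicates 1 to 4, with no overlap. The third sestrin, sesn3, had a difference of 0.04 ± 0.09 (adjusted p = 0.722). The growth factor gdf11 rose (0.89 ± 0.16, adjusted p = 0.00187). The repressor jdp2b, a close relative of atf3, fell (-2.15 ± 0.57, adjusted p = 0.0124), but its sibling pools ranged widely and overlapped the mutants. The ATF4 relatives atf5a (0.50 ± 0.31, adjusted p = 0.199) and atf5b (0.15 ± 0.13, adjusted p = 0.347) did not pass. The gene atf5a passed without sibling replicate 3 (0.81) and with normexp (0.42), and atf5b passed without mutant replicate 4 (0.28). With normexp 4 relatives were higher, the others being jdp2a (0.42), sesn1 and gdf11. The chac1 relative chac2, which also degrades glutathione, had -0.07 ± 0.12 (adjusted p = 0.625).

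Both gdf15 and the sestrins are also known as targets of p53 in mammals. Of 30 measured p53 target genes, 7 rose and 11 fell, with a median of -0.18. Beside sesn1 and bbc3, which rose and are in this list too, the cell cycle inhibitor cdkn1a fell 2.72-fold (-1.44 ± 0.17, adjusted p = 3.12e-04). The gene phlda3, a p53-induced inhibitor of Akt, fell as well (-0.90 ± 0.10, adjusted p = 1.95e-04).

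The mammalian receptor of GDF15 belongs to the GDNF-family receptors. Of 8 measured genes for receptors and ligands of that family, 5 rose and 1 fell. The probe of gfral itself was well above background on 3 of the 8 arrays and was left out of the test. The co-receptors gfra4a (1.09 ± 0.11, adjusted p = 1.80e-04) and gfra2a (1.01 ± 0.14, adjusted p = 6.70e-04) rose, and gfra2b fell (-0.94 ± 0.13, adjusted p = 6.24e-04). The co-receptor gfra1a, counted among the 5, had a fitted difference of 1.20. With normexp gfra1a stood at 0.67 and gfra2a at 0.63, and with quantile scaling gfra2b stood at -0.59. The probe of gfra1a was well above background on all 4 mutant arrays and on 1 of the 4 sibling arrays, so its sibling level is uncertain. It met the filter only through the mutant arrays, so its call is no evidence of a difference. GDNF-family receptors act in neurons among other cells, and 6 of 8 measured neuron markers were higher in mutants, with a summed linear intensity over the 75th percentile of 97.3 to 127 in mutant pools and 64.3 to 72.9 in sibling pools. The part of cell composition in these values was not tested.

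In the list of glutathione synthesis and breakdown, where chac1 acts, 2 of 15 measured genes passed as higher and 5 as lower. Those passed as higher were ggact.1 and ggact.2, cyclotransferases of gamma-glutamylamines and not of glutathione. Neither was well above background in any of the 4 sibling pools. Both entered the test through the mutant arrays alone, so their calls are no evidence of a difference. A floor was set on each sibling array, the higher of the probe's signal and the dimmest signal that counts as above background. Against this floor the mutant mean was higher by 3.27 on the log2 scale for ggact.1 and by 2.80 for ggact.2. The floor is a nominal one, since some probes brighter than it, gfra1a among them, failed the background criterion. With normexp the log2 differences were smaller, 2.03 for ggact.1 and 1.79 for ggact.2, so the values against the floor are no lower bounds. The count of higher genes was 4 with no filter on dim probes and 0 when a probe had to be above background on all arrays, which leaves both out. The count of lower genes was 3 with that filter, with the replicate block, and without mutant replicate 1, sibling replicate 2 or sibling replicate 4. The gamma-glutamyltransferase ggt1b fell (-1.67 ± 0.18, adjusted p = 1.80e-04), by -0.61 with normexp, and the dipeptidase dpep1 fell (-2.24 ± 0.36, adjusted p = 0.00118), by -1.18 with normexp.

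**Figure D4:**
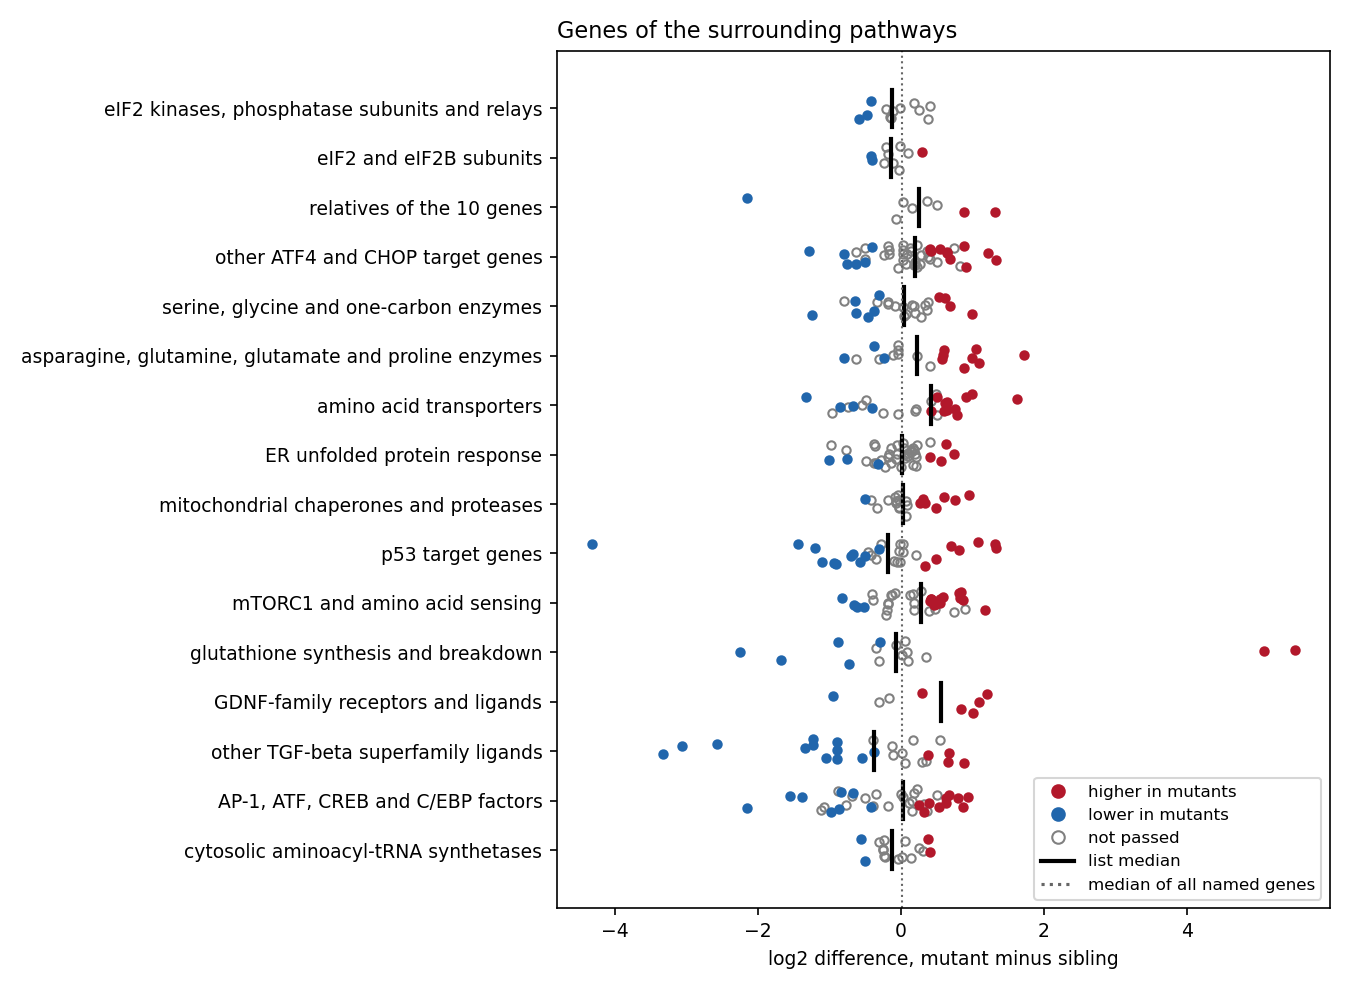
Log2 difference, mutant minus sibling (horizontal axis), of each measured gene in 16 pathway lists (rows), filled red where higher and blue where lower at an adjusted p of 0.05, open where not passed, with the list median as a black bar and the median of all named genes dotted. Amino acid transporters have a median of 0.43 and the unfolded protein response one of 0.02, and the 2 points over 5 are fitted values of ggact.1 and ggact.2, which lay at background in siblings.

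Tissue markers were counted in the same fit, with summed levels given as linear intensity over the 75th percentile. The share called was 88.9% for lens, 85.7% for intestine and for red blood cell, 75% for neuron and 62.5% for macrophage markers. It was 50% for kidney tubule, 40% for liver, 33.3% for exocrine pancreas and 0% for skeletal muscle, beside 57.4% of all named genes. In mutants 4 of 10 liver markers were higher and 0 lower, with a summed level of 1076 to 1262 in mutant pools and 792 to 1001 in sibling pools. Of 7 intestine markers 6 were lower, with sums of 61.7 to 124 in mutant pools and 277 to 326 in sibling pools. Of 7 red blood cell markers 6 were lower, with sums of 5.11 to 110 in mutant pools and 278 to 360 in sibling pools. The 9 skeletal muscle markers had 0 higher and 0 lower in the limma fit, and 1 higher at an unadjusted p under 0.05. Lower in mutants were also 8 of 9 lens markers, 4 of 8 macrophage markers (1 higher), 3 of 8 kidney tubule markers (1 higher) and 2 of 6 exocrine pancreas markers. Each measured liver, intestine, muscle and neuron marker passed the background criterion on every array. The part of tissue composition in the level of gdf15 and the other 8 genes was not tested.

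Which genes had a profile over the 8 pools most like that of gdf15 was asked by a distance, the root mean square of the differences between log2 profiles that were each centred on their own sibling mean. The nearest 5 of the named genes were cherp (0.64), the phospholipase pla1a (0.67), the secreted angiopoietin-like factor angptl6 (0.74), the transcriptional repressor nfil3-2 (0.78) and the phospholipase pla2g3 (0.86). All have a difference near that of gdf15, between 2.56 and 3.89, which is what the distance asks for. In sibling pools cherp and pla2g3 stayed under the background criterion throughout. Their place among the nearest thus rests on sibling signals at background. Against the floor described for ggact.1, the mutant mean was at least 4.58-fold higher for cherp and at least 8.35-fold higher for pla2g3, and with normexp the log2 differences were smaller than that, 1.38 for cherp and 1.54 for pla2g3. Angptl6 read -0.01, -0.37, -0.53 and -0.34 in mutant replicates 1 to 4, against -3.03, -3.00, -2.94 and -2.75 in sibling replicates 1 to 4, while nfil3-2 read 1.36, 2.07, 1.76 and 1.94 in mutants, against -0.73, -1.04, -0.51 and -0.85 in siblings. The order of the mutant pools in these genes was not that of gdf15. Of the other stress genes, ddit3 was nearest (1.71), with 702 genes nearer, and sesn2 farthest (3.07).

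**Figure D5:**
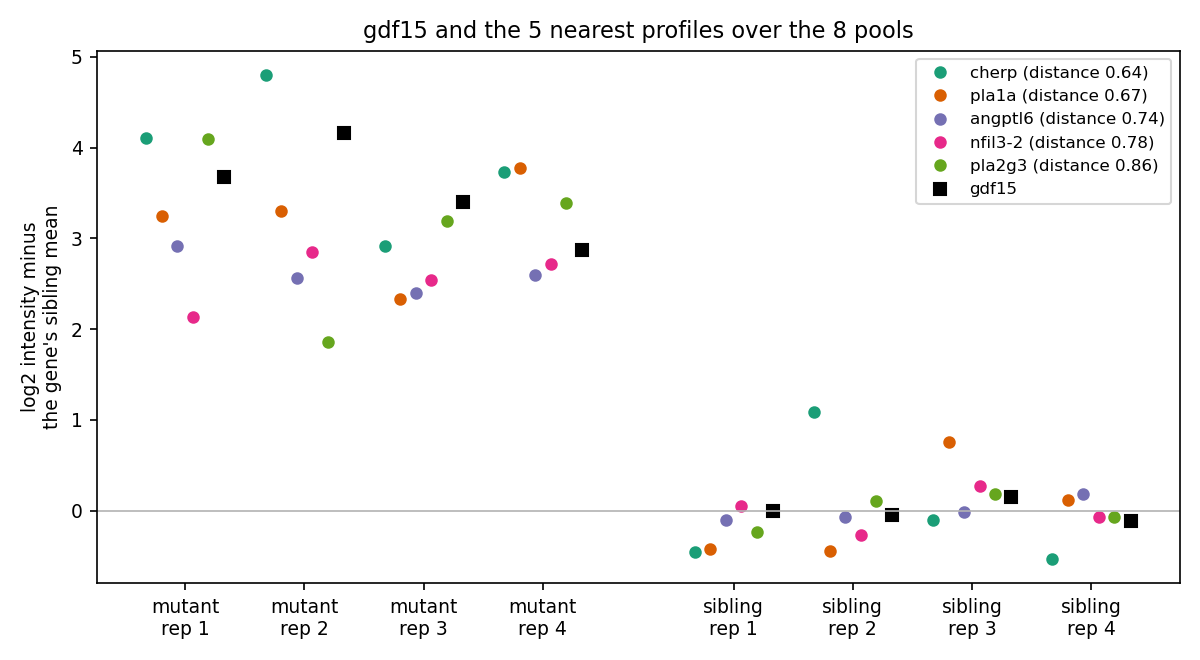
Log2 intensity minus the gene's own sibling mean (vertical axis) in each of the 8 pools (horizontal axis) for gdf15 (black squares) and the 5 nearest profiles (coloured points). The 5 nearest genes stand between 1.86 and 4.80 in the mutant pools, above their own sibling pools, with mutant replicate 2 highest for gdf15.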

How the data were processed

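Arrays of 4 mutant and 4 sibling pools, on 1 slide, were read with Agilent Feature Extraction 10.7.3.1. The deposited intensity per spot is its background-corrected signal, per the file headers. The authors also deposited a table of log2 values, used as an alternative. Dividing scanner intensities by their 75th percentile and subtracting every probe's median log2 value gave 89.4% to 91.0% of its values per array within 0.01, which settles its scale, centring and direction. Its column medians lay between -0.09 and 0.17.

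Control spots and 1099 outlier spots over the 8 arrays were left out, and 0 spots were saturated. Spots of a probe were averaged, divided by the 75th percentile of the array's probes, and log2 was taken. Of 39749 probes, 29935 with a signal well above background on at least 4 arrays were kept, a majority of the usable spots deciding on each array. RefSeq accessions without versions named 61.8% of probes (GRCz12tu table). A gene was its brightest probe. Coordinates are left out because the array design follows danRer7.

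The test was limma 3.58.1 under R 4.3.3 (lmFit and eBayes, two-sided, mutant minus sibling), with Benjamini-Hochberg adjustment over all probes kept. The fit was tested on simulated data. The members and gene lists were chosen with earlier results of these data known. Named are the members, all measured eIF2 kinase, phosphatase and relay genes and relatives of the members, in each other list the 4 genes with the lowest adjusted p plus a called gene of the opposite direction where those 4 ran one way, and the 5 nearest profiles. Genes outside this rule, such as psat1 and bmp1a, are named with the reason beside them. The planned search for a promoter motif was not run. The normexp alternative, with an offset of 50, used spot medians, not means. Further alternatives were scaling by quantiles or by the median, a stricter or no filter for dim probes, keeping outlier spots, a block for replicate number or slide row, a trended robust fit, averaging a gene's probes, and leaving out each array. The number of arrays limits the precision.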

Additional observations from a re-analysis of the deposited data

Results flagged for a closer look

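Among the 18 groups of 4 pools formed by the 9 genes and 2 genotypes, 1 held a pool far from the others by Dixon's criterion, where chance gives about 1 in 20 groups. This was trib3 in sibling replicate 1, with a level of 0.37 where the nearest other sibling pool was at 0.93. Its gap took 0.830 of the range of the sibling pools. The difference of trib3 was 0.14 without this pool and 0.30 with it, and the genotypes overlapped. The cause was not tested.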

How the results depend on the processing

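Over the whole table, 5136 named genes were higher and 4766 lower, and 19 other settings gave 4553 to 6263 higher and 3988 to 4988 lower. Of the other targets of ATF4 and CHOP, 9 to 15 were higher and 5 to 7 lower in those settings. The naming rule picked 73 pathway genes, of which 58 were called. Of those 58, 51 kept their call under every setting that measured them, and 0 changed sign. The 51 include ggact.1, ggact.2 and gfra1a, which met the filter only through the mutant arrays. They also include dpep1, which met it only with the sibling arrays, so these genes add no support. The calls of cebpa and ulk1a were lost with normexp, that of nfe2l2a with the mean of its probes, and those of cars1, nars1, rars1 and eif2b4 when single pools were left out, among other settings. Normexp shrank 17 differences by over 1.5 times among the genes picked by the naming rule, the only genes counted for this. Among the 9 stress genes, 3 crossed 0 under some setting (atf4a, atf4b and asns). Replicate numbers are shared between genotypes. Pools of the same number correlated by 0.18, 0.09, -0.02 and -0.03 in their deviations from the genotype means, which gave no clear sign of pairing. Only for mutant replicate 2 was the best-matching sibling pool the one of the same number. These values cannot tell whether pools of the same number shared a clutch or batch. With the replicate block, 4867 genes were higher and 4493 lower. Intensities near background limit what can be said of dim probes.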

Other observations

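Genes of mTORC1 and amino acid sensing, the pathway that sestrins restrain, were measured in 35 cases, with 13 higher and 4 lower in mutants and a median of 0.29. The list mixes activators and inhibitors of the pathway and holds mTORC2 genes, so its counts give no direction of pathway activity. The amino acid-responsive GTPase rragca (0.87 ± 0.11, adjusted p = 3.28e-04), the lysosomal transcription factor tfe3a (0.81 ± 0.11, adjusted p = 5.10e-04) and the mTORC2 subunit rictora (1.17 ± 0.17, adjusted p = 7.33e-04) rose. The autophagy kinase ulk1a fell (-0.65 ± 0.11, adjusted p = 0.00119), a call lost with normexp (-0.18). With normexp rictora stood at 0.71. In the list of other ligands of the transforming growth factor beta superfamily, to which gdf15 belongs, 25 genes were measured. Of these 4 rose and 12 fell, with a median of -0.37. Those that rose include bmp1a (0.66 ± 0.16, adjusted p = 0.00830), which encodes a protease and not a ligand. The count of higher ones was 7 with normexp and 2 without mutant replicate 3, sibling replicate 1 or sibling replicate 4. The bone morphogenetic proteins bmp8a (-2.56 ± 0.18, adjusted p = 5.42e-05), bmp2b (-1.34 ± 0.13, adjusted p = 1.23e-04), bmp2a (-1.22 ± 0.13, adjusted p = 2.04e-04) and bmp3 (-0.89 ± 0.11, adjusted p = 3.77e-04) fell, and with normexp bmp8a, bmp2b and bmp2a stood at -1.42, -0.68 and -0.43.

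Of 37 AP-1, ATF, CREB and C/EBP factors other than the 9 genes, 10 rose and 8 fell, with a median of 0.04, and 6 were higher with the replicate block. The antioxidant regulator nfe2l2a rose (0.94 ± 0.12, adjusted p = 3.79e-04), but the mean of its probes gave 0.23 (adjusted p = 0.122). The secretory pathway factors creb3l2 (-0.67 ± 0.11, adjusted p = 0.00102) and creb3l1 (-0.87 ± 0.15, adjusted p = 0.00160) fell. The call of cebpa (-1.55 ± 0.19, adjusted p = 3.56e-04) was lost with normexp (-0.30, adjusted p = 0.0619), and its probe passed the background criterion in only 2 mutant pools. The list of mitochondrial chaperones and proteases, which also holds genes of protein import, had 22 measured genes. Of these 7 rose and 1 fell, with 2 lower without mutant replicate 4. The inner membrane protease subunits afg3l1 (0.60 ± 0.13, adjusted p = 0.00448) and afg3l2 (0.33 ± 0.08, adjusted p = 0.00994) and the cochaperone dnaja3b (0.50 ± 0.09, adjusted p = 0.00179) rose, and the import receptor tomm20a fell (-0.50 ± 0.11, adjusted p = 0.00549). Of 16 cytosolic aminoacyl-tRNA synthetases, which ATF4 also induces in mammals, 2 rose (nars1 and cars1) and 2 fell (mars1 and rars1). Over the other settings 0 to 3 were higher and 1 to 6 lower, the 6 without mutant replicate 3.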
